A study of Homo sapiens with 4 samples.

Results

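The mRNA levels of 48 genes of the mRNA export machinery and the nuclear pore were described in 4 libraries of human hepatocellular carcinoma cells. The genes were chosen by name from the known export complexes and the nuclear pore, by a rule that uses no measured value although earlier results of these data were known, and all 48 were found, each on 1 row, among the 60612 genes of the deposited tables. They were of interest because the study places the RNA-binding protein CCDC137 in mRNA localization. The Huh-7 groups were cells overexpressing CCDC137 from a lentiviral vector and cells with the empty vector. The PLC/PRF/5 groups were cells with CCDC137 knocked down and control cells. Huh-7 and PLC/PRF/5 are established liver cancer lines. The knockdown relied on inactive Cas9 fused to the KRAB repressor and led to the gene by a guide RNA. The labels do not say which of the study's guides was sequenced, or whether the control cells carried a vector. Infected cells were selected with puromycin. There was 1 library per group, so no difference below has a replicate check and none was tested.

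Before an mRNA leaves the nucleus, the cap-binding complex holds its capped end and the TREX complex, made of the THO subunits, a DEAD-box helicase and adaptor proteins, is loaded onto it. The adaptors hand the mRNA to the receptor NXF1-NXT1, with TREX-2 tethering the particle to the nuclear basket of the pore. The pore itself is built from nucleoporins arranged as a Y-shaped outer scaffold, an inner ring, a central channel, a nuclear basket and cytoplasmic filaments. At the cytoplasmic face the helicase DDX19 and its activator GLE1 strip the export receptor from the mRNA. Exportin 1 carries proteins and some RNAs, but not bulk mRNA. The libraries measured the total level of polyadenylated RNA, and neither protein nor the nuclear or cytoplasmic place of an mRNA.

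Values were FPKM, fragments per kilobase of transcript scaled to the fragments mapped in the library, and summed to between 276444 and 289684 per library. Read counts were not analysed here and the depth of the libraries is unknown, so no counting error can be set on a value. CCDC137 itself was at 229 FPKM in CCDC137-overexpressing and 11.9 FPKM in empty vector Huh-7 cells, and 0.771 FPKM in CCDC137-knockdown and 20.5 FPKM in control PLC/PRF/5 cells, as the labels say. Of 12 hepatocyte markers, 12 reached 1 FPKM in both Huh-7 libraries and 11 in both PLC/PRF/5 libraries, where TTR was below 1 FPKM and ALB was at 1.94 and 2.15 FPKM in knockdown and control cells. Of 6 leukocyte markers, 3 reached 1 FPKM in both Huh-7 libraries and 2 in both PLC/PRF/5 libraries, and PTPRC, which defines leukocytes, was listed at 0 in all 4. Their summed level was 170 FPKM in CCDC137-overexpressing and 209.6 FPKM in empty vector Huh-7 cells, and 250.2 FPKM in CCDC137-knockdown and 167 FPKM in control PLC/PRF/5 cells. Most of it was LYZ, at 161 FPKM in CCDC137-overexpressing and 197 FPKM in empty vector Huh-7 cells, and 206 FPKM in CCDC137-knockdown and 129 FPKM in control PLC/PRF/5 cells. CD68 was at 4.602 FPKM in CCDC137-overexpressing and 8.45 FPKM in empty vector Huh-7 cells, and 43.8 FPKM in CCDC137-knockdown and 38.2 FPKM in control PLC/PRF/5 cells, and CD14 reached 1 FPKM only in Huh-7, at 4.81 FPKM in overexpressing and 4.59 FPKM in empty vector cells. Of 6 fibroblast markers only LUM reached 1 FPKM, at 22.8 FPKM in overexpressing and 28.7 FPKM in empty vector Huh-7 cells, and of 4 endothelial markers only PECAM1, at 2.66 FPKM in overexpressing and 2.28 FPKM in empty vector Huh-7 cells. The part of these markers in any difference below was not tested. In RNA of a whole culture, fewer cells with a transcript and less of it in each cell cannot be told apart.

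All 48 genes were expressed at 1 FPKM or more in every library. Their median was 11.5 FPKM in CCDC137-overexpressing Huh-7 cells, 12.4 FPKM in empty vector Huh-7 cells, 10.3 FPKM in CCDC137-knockdown PLC/PRF/5 cells and 10.7 FPKM in control PLC/PRF/5 cells. The median member lay above 68.5% to 72.8% of the genes at 1 FPKM or more in its library, and the lowest member above 17.8% to 32.9% of them. SEC13, a Y complex subunit that also coats COPII transport vesicles, was the most abundant member in Huh-7, at 62.9 FPKM in CCDC137-overexpressing and 51.4 FPKM in empty vector Huh-7 cells, but was at only 15.4 FPKM in CCDC137-knockdown and 17.5 FPKM in control PLC/PRF/5 cells. POLDIP3, an adaptor of TREX, was at 32.5 FPKM in CCDC137-overexpressing and 30.4 FPKM in empty vector Huh-7 cells, and 16.2 FPKM in CCDC137-knockdown and 18.5 FPKM in control PLC/PRF/5 cells. In PLC/PRF/5 control cells MCM3AP, the scaffold of TREX-2, was the most abundant. At the low end, the cap-associated protein NCBP3 was at 3.405 FPKM in CCDC137-overexpressing and 3.06 FPKM in empty vector Huh-7 cells, and 2.102 FPKM in CCDC137-knockdown and 2.06 FPKM in control PLC/PRF/5 cells. In overexpressing Huh-7 cells ENY2, at 3.36 FPKM, was lower than NCBP3. PCID2, a TREX-2 subunit, was low in Huh-7 only, at 4.36 and 3.97 FPKM in overexpressing and empty vector cells. In PLC/PRF/5 it was closer to the median of the 48, at 9.15 and 9.81 FPKM in knockdown and control cells.

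**Figure D1:**
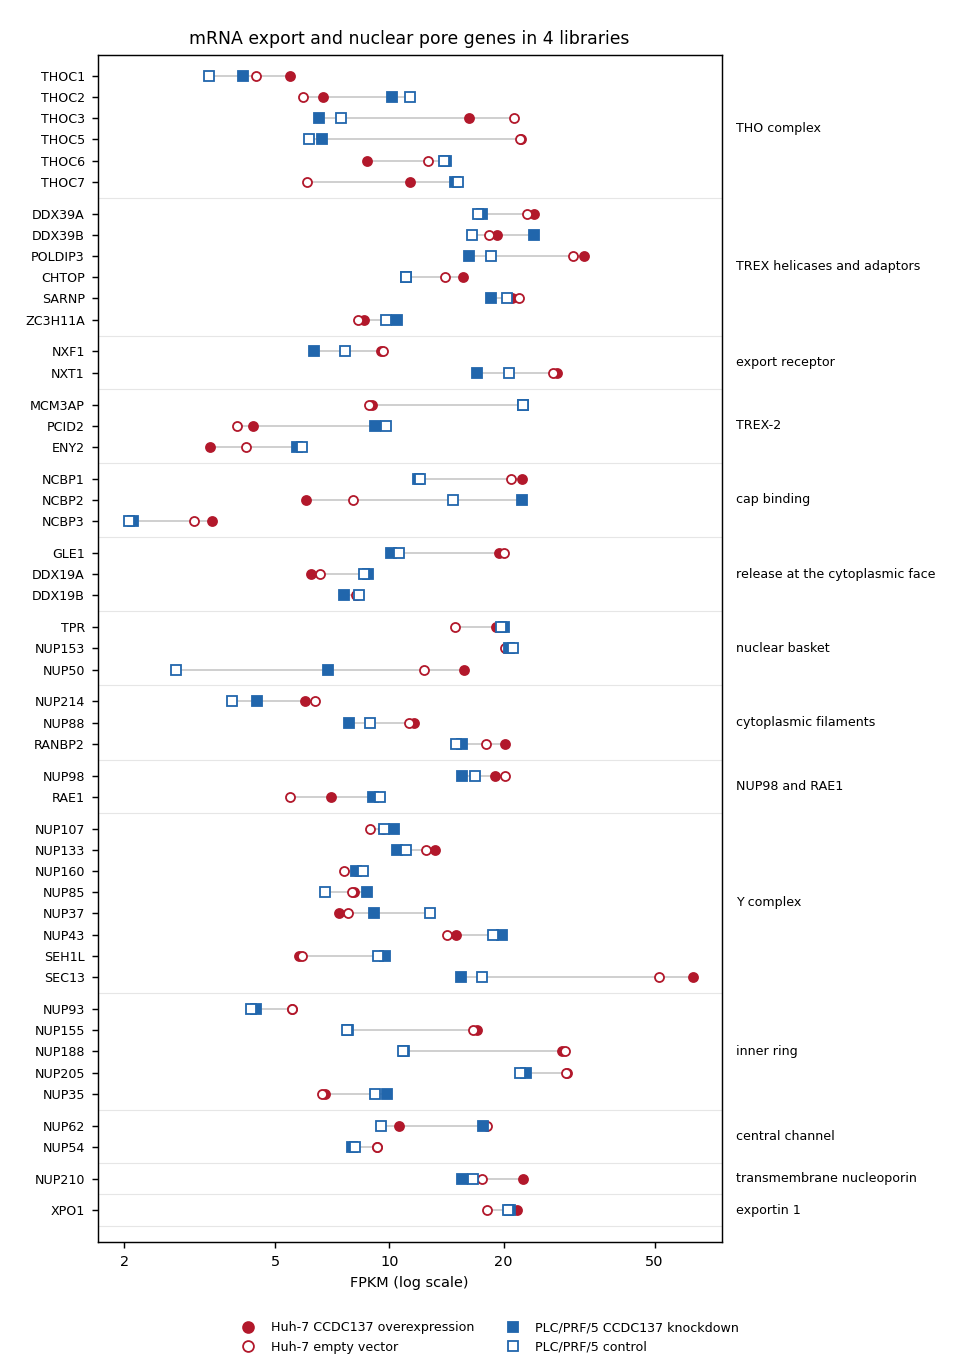
FPKM (log scale) of each of the 48 genes in the 4 libraries, grouped by complex or role, with filled symbols for cells with altered CCDC137, open symbols for their controls, circles for Huh-7, squares for PLC/PRF/5 and a grey line from the lowest to the highest library. For most genes the filled and open symbols of a line lie close together, and the lines lie further apart.

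On CCDC137 overexpression in Huh-7 cells, the export and pore genes differed little as a group. Differences are log2((FPKM + 1)/(FPKM + 1)) of overexpressing over empty vector cells, a scale that understates the difference of weakly expressed genes. The 48 genes had a median difference of 0.04, beside 0.01 for the 12255 genes at 1 FPKM or more in either library, and 32 of them were higher by any amount, beside 53.6% of all such genes. By a ratio of 5 to 4 or more in FPKM + 1, which is 0.32 on the log2 scale, there were 4 members above the control and 4 below it. Of all genes, 8.85% lay above and 7.87% below. Each fold threshold between 2 groups is likewise of FPKM + 1. By 1.5 fold or more, 1 member was higher and 1 lower, beside 3.22% and 2.99% of all genes. No member reached 2 fold, which 1.07% of all genes did upwards and 1.09% downwards.

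Among the THO subunits, which form the core of TREX, THOC7 was higher and THOC6 and THOC3 were lower on overexpression. THOC7 was at 11.4 FPKM in CCDC137-overexpressing and 6.06 FPKM in empty vector Huh-7 cells, a log2 difference of 0.81, the largest of the 48 in this comparison. It was at 14.9 FPKM in CCDC137-knockdown and 15.2 FPKM in control PLC/PRF/5 cells, so that the overexpressing library lay between the Huh-7 control and the PLC/PRF/5 pair. THOC6, a WD-repeat subunit, was at 8.71 FPKM in CCDC137-overexpressing and 12.7 FPKM in empty vector Huh-7 cells (-0.49) and at 14.1 FPKM in CCDC137-knockdown and 13.9 FPKM in control PLC/PRF/5 cells. THOC3 was at 16.2 FPKM in CCDC137-overexpressing and 21.3 FPKM in empty vector Huh-7 cells (-0.37) and at 6.53 FPKM in CCDC137-knockdown and 7.43 FPKM in control PLC/PRF/5 cells. A THOC3 pseudogene listed as AC106795 shared 17.8% of the 150-base windows of THOC3 transcripts and was at 2.97 FPKM in overexpressing and 9.73 FPKM in empty vector cells, lower in the same library as THOC3. The sum of both rows was 19.2 FPKM in overexpressing and 31.01 FPKM in empty vector Huh-7 cells, a log2 difference of -0.66, and the split between them is uncertain. THOC1, THOC2 and THOC5 had log2 differences of 0.25, 0.15 and 0.01.

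The helicases, adaptors and receptors of the export path differed by less than 0.32 on overexpression. DDX39B, the UAP56 helicase that loads TREX, was at 19.3 FPKM in CCDC137-overexpressing and 18.3 FPKM in empty vector Huh-7 cells, and its paralog DDX39A was at 24.04 FPKM in CCDC137-overexpressing and 23.1 FPKM in empty vector Huh-7 cells. CHTOP, an adaptor, had the largest difference of this group, at 15.6 FPKM in CCDC137-overexpressing and 14.01 FPKM in empty vector Huh-7 cells (0.15). NXF1, the main mRNA export receptor, was at 9.503 FPKM in CCDC137-overexpressing and 9.59 FPKM in empty vector Huh-7 cells, and its partner NXT1 at 27.7 FPKM in CCDC137-overexpressing and 26.9 FPKM in empty vector Huh-7 cells. In TREX-2, ENY2, which is also part of the SAGA coactivator, was at 3.36 FPKM in CCDC137-overexpressing and 4.18 FPKM in empty vector Huh-7 cells (-0.25). XPO1, exportin 1, was at 21.6 FPKM in CCDC137-overexpressing and 18.1 FPKM in empty vector Huh-7 cells (0.25). Of the releasing factors, DDX19A was at 6.22 FPKM in CCDC137-overexpressing and 6.55 FPKM in empty vector Huh-7 cells (-0.06) and DDX19B at 8.19 FPKM in CCDC137-overexpressing and 8.17 FPKM in empty vector Huh-7 cells, and GLE1 had a log2 difference of -0.03. NCBP2, the small cap-binding subunit, was the exception among the nuclear factors outside THO. It was at 6.02 FPKM in CCDC137-overexpressing and 7.99 FPKM in empty vector Huh-7 cells (-0.36), whereas its partner NCBP1 was at 22.4 FPKM in CCDC137-overexpressing and 20.9 FPKM in empty vector Huh-7 cells (0.09) and NCBP3 differed by 0.12.

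At the pore, TPR, NUP50 and NUP210 were higher by 0.32 or more on overexpression and NUP62 was lower. TPR, the main filament of the basket, was at 19.1 FPKM in CCDC137-overexpressing and 14.9 FPKM in empty vector Huh-7 cells (0.34). NUP50, a basket protein that moves between pore and nucleoplasm, was at 15.7 FPKM in CCDC137-overexpressing and 12.3 FPKM in empty vector Huh-7 cells (0.33), just past 0.32. NUP153, which anchors the basket, was at 21.1 FPKM in CCDC137-overexpressing and 20.2 FPKM in empty vector Huh-7 cells (0.06). NUP210, the transmembrane nucleoporin of the list, was at 22.6 FPKM in CCDC137-overexpressing and 17.5 FPKM in empty vector Huh-7 cells (0.35). Just under 0.32 were RAE1, the partner of NUP98, at 7.01 FPKM in CCDC137-overexpressing and 5.47 FPKM in empty vector Huh-7 cells (0.31), and SEC13 (0.28). NUP62, the FG-repeat protein of the central channel, was at 10.6 FPKM in CCDC137-overexpressing and 18.02 FPKM in empty vector Huh-7 cells, the lowest log2 difference of the 48 (-0.71). Its channel partner NUP54 was at 9.27 FPKM in CCDC137-overexpressing and 9.29 FPKM in empty vector Huh-7 cells. The 5 inner ring genes lay between -0.02 and 0.04, with NUP155, the furthest from 0, at 17.1 FPKM in CCDC137-overexpressing and 16.6 FPKM in empty vector Huh-7 cells. The 8 Y complex genes lay between -0.07 and 0.28, and of the cytoplasmic filament genes RANBP2, which also binds Ran, had the largest difference, at 20.2 FPKM in CCDC137-overexpressing and 17.9 FPKM in empty vector Huh-7 cells (0.16).

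Knocking down CCDC137 in PLC/PRF/5 cells also left these genes little different as a group. The median log2 difference of knockdown over control cells was 0.01, beside -0.01 for the 12300 expressed genes, and 25 of 48 members were higher by any amount, beside 47.8% of all. By 0.32 or more, 5 members lay above the control and 1 below it, where 7.15% of all genes lay above and 7.62% below. By 1.5 fold or more, 2 were higher and 0 lower, beside 3.08% and 2.95% of all genes. NCBP2 was short of 1.5 fold on this scale but at 1.53 times its control in FPKM. By 2 fold or more, 1 was higher, beside 1.2% of all genes, and 0 were lower, beside 1.1%.

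NUP50 and NUP62 stood furthest out on knockdown. NUP50 was at 6.87 FPKM in CCDC137-knockdown and 2.73 FPKM in control PLC/PRF/5 cells (1.08), so that the control library of PLC/PRF/5 was the lowest of the 4. NUP62 was at 17.7 FPKM in CCDC137-knockdown and 9.47 FPKM in control PLC/PRF/5 cells (0.83), at a level close to that of empty vector Huh-7 cells. NCBP2 was at 22.4 FPKM in CCDC137-knockdown and 14.7 FPKM in control PLC/PRF/5 cells (0.58), while NCBP1 was at 11.9 FPKM in CCDC137-knockdown and 12.1 FPKM in control PLC/PRF/5 cells and NCBP3 differed by 0.02. NUP85, a Y complex subunit, was at 8.72 FPKM in CCDC137-knockdown and 6.74 FPKM in control PLC/PRF/5 cells (0.33), and NUP37, another, was at 9.11 FPKM in CCDC137-knockdown and 12.8 FPKM in control PLC/PRF/5 cells (-0.45), the only member lower by 0.32 or more. The other 6 Y complex genes lay between -0.17 (SEC13) and 0.08 (NUP107). NUP133, NUP160, NUP43 and SEH1L, all scaffold subunits of that complex, had log2 differences of 0.07, 0.10, 0.07 and -0.02 on overexpression and of -0.08, -0.06, 0.07 and 0.05 on knockdown. NUP160, the most even of these over the 4 libraries, was at 8.18 FPKM in CCDC137-overexpressing and 7.58 FPKM in empty vector Huh-7 cells, and 8.14 FPKM in CCDC137-knockdown and 8.51 FPKM in control PLC/PRF/5 cells.

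To let the sequences be read beside these values, the RefSeq promoter windows (GRCh38.p14) of NUP62, NUP50 and DDX39B are given 5′ to 3′, from 250 bases before to 50 after the start. NUP62 and NUP50 had the largest knockdown differences of the 48, and DDX39B is described next. In the first 2, capitals mark the NRF1 palindrome, the core letters of the NRF1 recognition site, and in the third the letters CCGGAAGT, the core recognised by ETS factors. The window of NUP62 is chr19:49929455-49929754 on the minus strand, that of NUP50 is chr22:45163675-45163974 on the plus strand, the upstream of 2 windows listed for the gene, and that of DDX39B is chr6:31541954-31542253 on the minus strand.
NUP62: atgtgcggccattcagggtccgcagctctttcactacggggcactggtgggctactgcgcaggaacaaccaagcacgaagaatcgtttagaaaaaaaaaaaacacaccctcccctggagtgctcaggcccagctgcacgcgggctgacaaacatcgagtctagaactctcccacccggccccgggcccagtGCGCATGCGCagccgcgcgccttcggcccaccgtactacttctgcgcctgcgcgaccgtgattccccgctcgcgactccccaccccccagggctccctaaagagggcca
NUP50: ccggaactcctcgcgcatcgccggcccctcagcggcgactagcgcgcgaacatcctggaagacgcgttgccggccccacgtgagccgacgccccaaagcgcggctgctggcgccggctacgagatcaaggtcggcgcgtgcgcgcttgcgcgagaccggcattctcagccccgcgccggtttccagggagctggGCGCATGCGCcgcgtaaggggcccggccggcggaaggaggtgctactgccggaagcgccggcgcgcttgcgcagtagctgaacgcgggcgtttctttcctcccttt
DDX39B: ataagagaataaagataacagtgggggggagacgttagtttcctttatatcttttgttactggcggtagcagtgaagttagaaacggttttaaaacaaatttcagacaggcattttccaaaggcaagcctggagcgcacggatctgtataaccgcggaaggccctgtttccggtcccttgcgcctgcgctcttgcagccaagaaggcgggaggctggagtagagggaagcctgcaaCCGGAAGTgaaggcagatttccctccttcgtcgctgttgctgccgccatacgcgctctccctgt

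Windows were found for 43 of the 48 genes, 55 windows in all. The palindrome, searched on both strands as were the other letters, was in 3 of the 55, those of NUP62, NUP50 and NUP107, beside 1.24% of the 35116 windows of all genes. NUP107, a Y complex subunit with the same letters, was at 9.599 FPKM in CCDC137-overexpressing and 8.89 FPKM in empty vector Huh-7 cells, and 10.2 FPKM in CCDC137-knockdown and 9.68 FPKM in control PLC/PRF/5 cells, with log2 differences of 0.10 and 0.08. The ETS letters were in 10 windows of 8 members, beside 4.14% of all windows, and in those of DDX39B, NUP160, NUP35, NUP54, PCID2, POLDIP3, SEC13 and THOC5. The GC box GGGCGG was in 58.2% of the members' windows against 45% of all, the CCAAT letters in 43.6% against 34.6%, and the TATA box TATAAA in 5.45% against 11.5%. These are matches of letters, and binding was not measured.

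The difference of DDX39B on knockdown cannot be read apart from a readthrough gene. DDX39B was at 24.1 FPKM in CCDC137-knockdown and 16.5 FPKM in control PLC/PRF/5 cells (0.52). ATP6V1G2-DDX39B, a readthrough that shares 20.9% of the 150-base windows of DDX39B transcripts, was at 2.89 FPKM in knockdown and 16.6 FPKM in control cells. The 2 rows together came to 26.99 FPKM in knockdown and 33.0 FPKM in control cells, a log2 difference of -0.28, so that the sign turned. In Huh-7 the readthrough was at 0.695 FPKM in overexpressing and 1.61 FPKM in empty vector cells. SARNP, an adaptor bound to the DDX39B helicase, was at 18.5 FPKM in CCDC137-knockdown and 20.4 FPKM in control PLC/PRF/5 cells (-0.14), while AC023055, a readthrough gene on the same strand that holds 20.4% of the SARNP windows, was at 5.97 FPKM in knockdown and 0.291 FPKM in control cells. Their sum was 24.5 FPKM in knockdown and 20.7 FPKM in control cells (0.23). DDX39B and SARNP each had a partner whose difference had the other sign. DDX39A, which shared no window with DDX39B, was at 17.6 FPKM in CCDC137-knockdown and 17.1 FPKM in control PLC/PRF/5 cells.

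**Figure D2:**
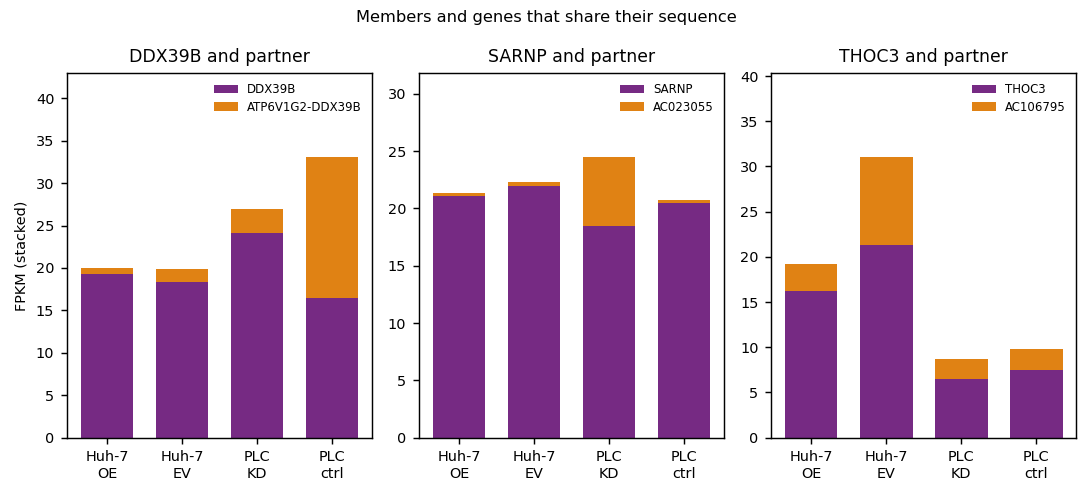
Stacked FPKM of DDX39B, SARNP and THOC3 (purple) and of a gene that shares sequence with each (orange), in Huh-7 CCDC137 overexpression (OE), Huh-7 empty vector (EV), PLC/PRF/5 knockdown (KD) and PLC/PRF/5 control cells. ATP6V1G2-DDX39B is at 2.89 FPKM in knockdown and 16.6 FPKM in control cells, where DDX39B is at 24.1 and 16.5 FPKM.

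Such sharing touched a minority of the genes. THOC3 shared 39.3% of its windows in all, with AC106795 and a gene model that was not analysed here. For 34 of the 48, no 150-base window of their transcripts occurred in the transcripts of another gene, and for 40 under 5% did. At 20% or more were ZC3H11A, POLDIP3, THOC3, DDX19B, DDX39B and SARNP. Of ZC3H11A, a zinc finger protein bound to TREX, 75.6% of windows were shared with ZBED6, a gene nested in it, which was at 1.24 FPKM in overexpressing and 1.31 FPKM in empty vector Huh-7 cells and at 1.66 FPKM in knockdown and 1.33 FPKM in control PLC/PRF/5 cells. ZC3H11A itself was at 8.58 FPKM in CCDC137-overexpressing and 8.26 FPKM in empty vector Huh-7 cells, and 10.4 FPKM in CCDC137-knockdown and 9.81 FPKM in control PLC/PRF/5 cells. For POLDIP3, 73.3% were shared with an overlapping gene model that was not analysed here. The paralogs DDX19A and DDX19B shared 3.49% and 6.47% of their windows with each other, and 17.7% and 23.3% with their readthrough AC012184, which was listed at 0 in all 4 libraries. DDX19A was at 8.79 FPKM in CCDC137-knockdown and 8.58 FPKM in control PLC/PRF/5 cells, and DDX19B at 7.57 FPKM in CCDC137-knockdown and 8.33 FPKM in control PLC/PRF/5 cells. NUP62 shared 5.13%, with IL4I1 and another gene, both at or below 0.0391 FPKM in every library. NUP50 shared 0.601%, with a processed pseudogene at 1.08 FPKM or less in every library. Overlap with exons of the opposite strand was not counted here, and the authors' strand setting is unknown. ATF5 overlaps 9.4% of NUP62 exon bases in this way. It was at 8.93 and 10.9 FPKM in overexpressing and empty vector Huh-7 cells, and 10.3 and 9.94 FPKM in knockdown and control PLC/PRF/5 cells. HCFC1R1 overlaps 14% of THOC6, at 7.92 FPKM in overexpressing and 6.07 FPKM in empty vector Huh-7 cells, and RABEP1 31.7% of NUP88.

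The remaining export factors were close to their controls on knockdown. NXF1 was at 6.33 FPKM in CCDC137-knockdown and 7.64 FPKM in control PLC/PRF/5 cells (-0.24) and NXT1 at 17.05 FPKM in CCDC137-knockdown and 20.6 FPKM in control PLC/PRF/5 cells (-0.26), both lower and both short of 0.32. In TREX-2, MCM3AP was at 22.5 FPKM in CCDC137-knockdown and 22.5 FPKM in control PLC/PRF/5 cells. ENY2 differed by -0.04, and PCID2 had the largest difference of the TREX-2 genes among the members (-0.09). Of the THO genes THOC1, a core subunit, was at 4.098 FPKM in CCDC137-knockdown and 3.35 FPKM in control PLC/PRF/5 cells (0.23), and the other 5 lay between -0.16 (THOC3) and 0.09 (THOC5). THOC1 was higher in the treated library of both lines, short of 0.32 in each. XPO1 was at 20.8 FPKM in CCDC137-knockdown and 20.5 FPKM in control PLC/PRF/5 cells (0.02).

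The remaining pore genes differed by less than 0.32 on knockdown. The 5 inner ring genes, which link the scaffold to the channel, lay between 0.01 and 0.09 (NUP35), with NUP205 at 22.9 FPKM in CCDC137-knockdown and 22.1 FPKM in control PLC/PRF/5 cells and NUP188 at 10.9 FPKM in CCDC137-knockdown and 10.8 FPKM in control PLC/PRF/5 cells. NUP214, a filament protein that docks the DDX19 helicase, was at 4.47 FPKM in CCDC137-knockdown and 3.84 FPKM in control PLC/PRF/5 cells (0.18), and its partner NUP88 was at 7.83 FPKM in CCDC137-knockdown and 8.901 FPKM in control PLC/PRF/5 cells (-0.17). NUP98, an FG-repeat protein bound by RAE1, was at 15.5 FPKM in CCDC137-knockdown and 16.8 FPKM in control PLC/PRF/5 cells (-0.11). NUP210 was at 15.6 FPKM in CCDC137-knockdown and 16.6 FPKM in control PLC/PRF/5 cells (-0.08). Of the basket, TPR (0.03) and NUP153 (-0.03) stayed within 0.03 of 0, unlike NUP50.

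A gene that follows the CCDC137 level would go in opposite directions in the 2 comparisons, which share no library. Of the 48 members, 15 lay above the control on overexpression and below it on knockdown, beside 27.2% of the 10698 genes expressed in both comparisons. Another 8 had the opposite pattern (21.5% of all genes), 17 were higher in both (25.7%) and 8 lower in both (25.6%). At 0.32 or more in each, 2 members, NUP62 and NCBP2, lay below the control on overexpression and above it on knockdown, beside 1.15% of all genes. The reverse pattern had 0 members, beside 1.2% of all genes. NUP50 was higher in both (1.1%), and 0 were lower in both (1.18%). With 1 library on each side, whether NUP62 and NCBP2 run counter to CCDC137 was not tested.

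**Figure D3:**
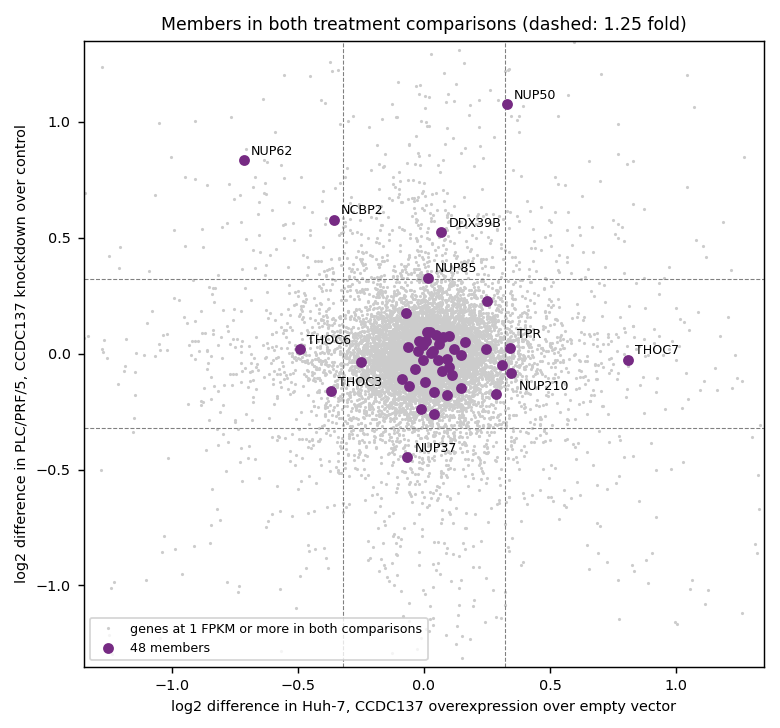
Log2 difference in Huh-7 (overexpression over empty vector, x axis) against that in PLC/PRF/5 (knockdown over control, y axis), both on log2(FPKM + 1), for the 48 members (purple) and genes expressed in both comparisons (grey, those beyond the axes left out). Dashed lines are at 0.32 and members past them in a comparison are named, with NUP62 and NCBP2 at the upper left and NUP50 at the upper right.

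The lines differed from each other far more than the treated cells differed from their controls. The median absolute log2 difference of the 48 genes was 0.07 on overexpression, 0.08 on knockdown and 0.38 between the empty vector Huh-7 and the control PLC/PRF/5 libraries, beside 0.13, 0.10 and 0.59 for all expressed genes. The line difference also includes any difference in what the control cells carried, and uses the same control libraries as the treatment comparisons. It sets levels of 2 tables side by side that may have been normalized separately. By 0.32 or more, 15 members were higher in Huh-7 and 13 lower, beside 34% and 36.7% of the 13304 genes expressed in either library. By 1.5 fold or more, 11 were higher and 7 lower, beside 24.1% and 26.3%. By 2 fold or more, 6 were higher and 3 lower, beside 13.6% and 14.6%. In all, 28 were higher by any amount, beside 48.1% of all genes.

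The 6 genes higher in Huh-7 by 2 fold or more were NUP50, THOC5, SEC13, THOC3, NUP188 and NUP155. NUP50 was at 12.3 FPKM in empty vector Huh-7 and 2.73 FPKM in control PLC/PRF/5 cells (1.83), and THOC5 at 22.04 and 6.15 FPKM (1.69). The treated libraries lay closer for NUP50, at 15.7 FPKM in overexpressing Huh-7 and 6.87 FPKM in knockdown PLC/PRF/5 cells. For THOC5 the treated libraries repeated the gap, at 22.2 FPKM in overexpressing Huh-7 and 6.63 FPKM in knockdown PLC/PRF/5 cells. NIPSNAP1, whose exons overlap 2% of those of THOC5 on the same strand, was at 46.04 FPKM in empty vector Huh-7 and 10.002 FPKM in control PLC/PRF/5 cells. In the inner ring NUP188 was at 28.98 and 10.8 FPKM (1.34) and NUP155 at 16.6 and 7.74 FPKM (1.01), against 5.54 and 4.31 FPKM for their binding partner NUP93 (0.30). SEC13 was at 51.4 and 17.5 FPKM, a log2 difference of 1.501, and THOC3 at 21.3 and 7.43 FPKM (1.40).

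The 3 genes lower in Huh-7 by 2 fold or more were MCM3AP, PCID2 and THOC7. Among the complexes of 3 or more listed genes, only TREX-2 had all its listed genes lower in Huh-7. The TREX-2 subunits SEM1, CETN2 and CETN3 were not listed with it, but counted below with the other export adaptors. SEM1 was at 8.996 FPKM in empty vector Huh-7 and 5.72 FPKM in control PLC/PRF/5 cells (0.57). CETN2 was at 15.2 and 14.1 FPKM (0.10) and CETN3 at 4.82 and 5.52 FPKM (-0.16), so TREX-2 was not lower throughout. MCM3AP was at 8.81 FPKM in empty vector Huh-7 and 22.5 FPKM in control PLC/PRF/5 cells (-1.26), PCID2 at 3.97 and 9.81 FPKM (-1.12), and ENY2 at 4.18 and 5.87 FPKM (-0.41). THOC7 was at 6.06 and 15.2 FPKM (-1.20). For THOC7 the treated libraries lay closer, at 11.4 FPKM in overexpressing Huh-7 and 14.9 FPKM in knockdown PLC/PRF/5 cells. THO subunits thus went both ways between the lines, with THOC2, the large scaffold subunit, at 5.92 and 11.3 FPKM (-0.84). GLE1 was at 19.98 and 10.6 FPKM (0.86) and NCBP1 at 20.9 and 12.1 FPKM (0.75), both under 2 fold.

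**Figure D4:**
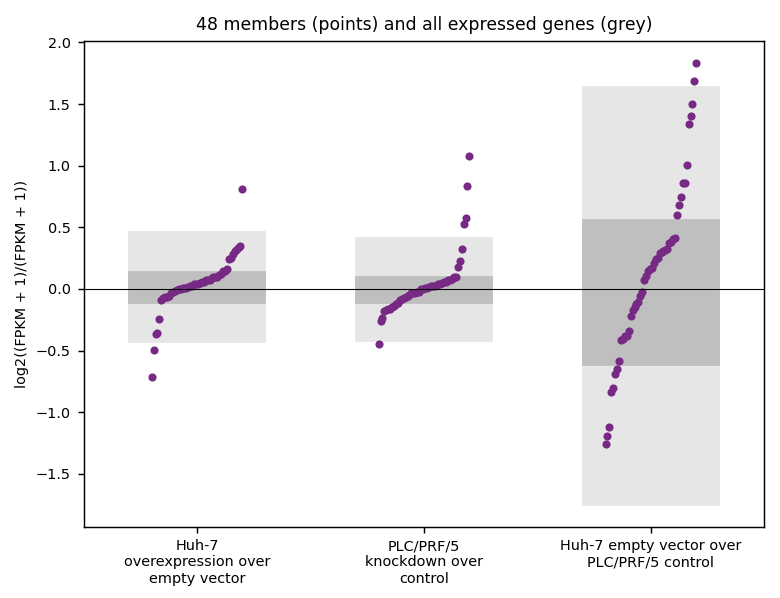
Log2((FPKM + 1)/(FPKM + 1)) of the 48 members (points, sorted within each comparison) for overexpression over empty vector, knockdown over control, and empty vector Huh-7 over control PLC/PRF/5 cells. Dark grey spans percentiles 25 to 75 and light grey 5 to 95 of all expressed genes; the members' median absolute difference is 0.07, 0.08 and 0.38.

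Some members barely varied over the 4 libraries. The highest library exceeded the lowest by at most 25% for 7 of 48 genes, beside 15.4% of the 10010 genes at 1 FPKM or more in every library, and was within 2 times the lowest for 38, beside 65% of such genes. NUP153 was the most even, within 1.1 times (2.76% of genes), at 21.1 FPKM in CCDC137-overexpressing and 20.2 FPKM in empty vector Huh-7 cells, and 20.7 FPKM in CCDC137-knockdown and 21.1 FPKM in control PLC/PRF/5 cells. The other 6 were DDX19B, NUP160, NUP107, NUP54, SARNP and XPO1. At the other end NUP50 spanned 5.75 times, SEC13 4.07, NCBP2 3.72 and THOC5 3.61 times.

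Other genes of nuclear transport had median absolute log2 differences of 0.07 on overexpression and 0.06 on knockdown, beside 0.07 and 0.08 for the 48. Of 60 further genes (export adaptors, exon junction complex, other pore genes, karyopherins and the Ran cycle), 56 were expressed on overexpression, with a median log2 difference of 0.01 and 1 gene higher and 1 lower by 0.32 or more. On knockdown 58 were expressed, with a median of -0.01 and again 1 gene higher and 1 lower. XPO4, an exportin of protein cargo, was at 5.78 FPKM in CCDC137-overexpressing and 3.14 FPKM in empty vector Huh-7 cells (0.71). IPO4, an importin of histones and ribosomal proteins, was at 5.03 FPKM in CCDC137-knockdown and 12.7 FPKM in control PLC/PRF/5 cells (-1.19), the difference furthest from 0 among these genes on knockdown. AL136295, which covers 68.7% of the exon bases of IPO4 on the same strand, was at 18.3 FPKM in knockdown and 13.4 FPKM in control cells, so that IPO4 too had an overlapping gene whose difference had the other sign. ALYREF, the adaptor that links TREX to NXF1, was at 30.9 FPKM in CCDC137-overexpressing and 33.1 FPKM in empty vector Huh-7 cells, and 35.9 FPKM in CCDC137-knockdown and 33.5 FPKM in control PLC/PRF/5 cells. None of the 7 further pore genes expressed differed by 0.32 in either treatment comparison. Nor did any of the 6 Ran cycle genes, which give transport through the pore its direction. By any amount, 0 of these 7 and 0 of these 6 were higher on knockdown, beside 47.8% of all expressed genes. On overexpression 6 of the 7 pore genes and 1 of the 6 Ran cycle genes were higher, beside 53.6%. These directions were not tested. DGCR8, the microprocessor protein through which the study links CCDC137 to mRNA localization, was at 4.97 FPKM in CCDC137-overexpressing and 4.94 FPKM in empty vector Huh-7 cells, and 2.25 FPKM in CCDC137-knockdown and 2.26 FPKM in control PLC/PRF/5 cells.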

How the data were processed

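Polyadenylated RNA of 4 libraries, 1 per group, was sequenced in paired ends of 150 bases. The authors deposited FPKM per gene in 2 tables, 1 per cell line, and StringTie 1.3.4d, HISAT2 2.0.4 and cutadapt are named in the submitters' notes on processing. Build, annotation and strand setting were not given in the sources used here. Fold, log2 fold, p-value and q-value columns of the authors' own comparisons were not used. A listed 0.0001 was taken as 0, and a gene counted as expressed at 1 FPKM or more in either library. Among genes below 0.1 FPKM the most common ratio of values, control over treated, held for only 3.04% of genes in either comparison, so whole reads were not recovered and depth is unknown.

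Differences were computed in Python 3.11.15 with numpy 2.4.6 and pandas 2.3.3 on the log2 scale with a pseudocount of 1. A prior run on simulated folds used strongly expressed genes without noise, so it checked the arithmetic only. With 1 library per group no test was made, and counts of members are given beside the share of all expressed genes. Values are given for members past 0.32 (a ratio of 5 to 4 in FPKM + 1) in a treatment comparison. They are also given for the most and least abundant members, the largest difference of each complex, and the DDX39 and DDX19 paralogs. Members past 2 fold between the lines and other transport genes past 1.5 fold were included too. Other members and transport genes are summarised or named as context. Members, gene lists and thresholds were chosen with earlier results of these data known, and the motifs, the sums with partner genes and the genes named as context after values were seen. Overlaps and shared 150-base windows came from the GRCh37 lift of GENCODE release 44, matched by gene ID, which may not be the authors' annotation. In all 7 alternatives were planned for each of 3 comparisons, and 1 was added.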

Additional observations from a re-analysis of the deposited data

Results flagged for a closer look

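NUP50 differed in direction between the lines when the library with more CCDC137 was set over the library with less. The log2 difference was 0.33 in Huh-7 (overexpression over empty vector) and -1.08 in PLC/PRF/5 (control over knockdown, the reverse of the order used in the report). The difference between the lines was not tested, since each rests on 1 library per side, and the Huh-7 value is only just past 0.32.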

How the results depend on the processing

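No paired analysis was possible because each group had 1 library, and no library could be left out. Since there is no replicate spread, a value was taken to move if it changed by more than 0.1 on the log2 scale, and a count if it changed by over 1.5 times. None of the 24 alternative medians of the members moved, but the limit of 0.1 is wider than the treatment medians themselves. The knockdown median, 0.0053, was -0.0129 for genes at 5 FPKM or more and -0.0167 with equal library sums, so its sign is not settled. The overexpression median, 0.0388, was 0.0239 when centred on all expressed genes and 0.0732 with equal library sums. The median of all expressed genes lay between -0.0477 and 0.0444 under every setting run. With a pseudocount of 5 FPKM, which compresses differences, the counts on overexpression were 1 higher and 2 lower by 0.32 (from 4 and 4). By 1.5 fold they were 0 and 0 (from 1 and 1). Members lower in Huh-7 than in PLC/PRF/5 were then 8 by 0.32 (from 13) and 4 by 1.5 fold (from 7). With a pseudocount of 0.1 FPKM, 5 members were higher by 0.32 on overexpression (from 4) and 3 by 1.5 fold on knockdown (from 2). Between the lines, 20 were then higher in Huh-7 by 0.32 (from 15). With the FPKM of the partner genes added to DDX39B, SARNP and THOC3, a setting chosen after seeing the data, 2 members were lower by 1.5 fold on overexpression, the second being THOC3 (-0.66). The sign of DDX39B on knockdown turned to -0.28. SARNP, at -0.14 alone, came to 0.23 there. Of 184 alternative values of genes past 0.32 in a treatment comparison or 2 fold between the lines, 158 stayed within 0.1, 25 moved and 1 changed sign. Most could hardly move, so the 158 is no measure of robustness. The filters leave a gene's value as it is, the rescalings shift all genes by a similar small amount, and the partner sums touch only the genes named above. All values that moved or changed sign did so with another pseudocount or the partner sums. The filter at 5 FPKM left out 3 members on overexpression, 4 on knockdown and 2 between the lines. The unknown depth limits most the values of a few FPKM, such as NUP50 in PLC/PRF/5 control cells.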
